A study of Danio rerio with 20 samples.

Results

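The genes described here code for the proteasome and its regulators in zebrafish leukemias. They were chosen by name: rows of the count table whose symbol begins with psma, psmb, psmc, psmd, psme, psmf or psmg followed by a number, ignoring case. This gave 58 of the 32105 genes in the table. PSMC3IP and PSME3IP1 match the rule by their letters only, since they code for partners of a subunit and of an activator. The other 56 rows were grouped by role into 10 genes of the alpha ring, 7 of the constitutive beta ring and 6 of the immunoproteasome, 7 ATPase genes, 17 other regulatory particle genes, 5 activator genes, 1 inhibitor gene and 3 assembly chaperone genes. The gene PSMB11, whose symbol also fits, has no row in the table and was not analysed here.

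The proteasome is the protease that breaks down ubiquitin-tagged proteins in the cytosol and nucleus. Its barrel, the 20S core, is built of outer alpha rings and inner beta rings. A 19S regulatory particle, with an ATPase base and a lid, unfolds the substrate and feeds it in. In lymphocytes and in cells exposed to interferon, the catalytic subunits PSMB5, PSMB6 and PSMB7 can be replaced by PSMB8, PSMB9 and PSMB10, which gives the immunoproteasome. In mammals it makes peptides for display on MHC class I. Fish carry further genes of this kind, psmb12 and psmb13a, and PSMB11-type genes code in mammals for a subunit of thymic cortical epithelium.

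Bulk polyA RNA of leukemia cells from fish of the CG1 strain was sequenced, and the tumors were labelled by high or low self-renewal capacity, their ability to start a new leukemia. The labels give no transgene, treatment or age. There were 8 high tumors (14 libraries) and 3 low tumors (6 libraries), 11 tumors in all, named here by their titles. Libraries of 1 tumor were summed, and levels are given as CPM, the library-size-normalized unit of read counts. The series text counts 6 high and 5 low tumors without naming them, so the groups follow the sample labels.

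Sequencing depth was 6015050 to 16951341 counted reads a library. Whether each tumor arose in its own fish is not stated. The titles 8.3 and 8.4.1.1.1 share a first number, whose meaning the labels do not give, and the tests count them as separate tumors. A p-value here therefore reflects only how the 11 tumors vary among themselves, which may be partly technical. The cells were checked against marker lists. Of 14 T-cell marker rows, 13 could be tested and 3 were higher in the high tumors. Of 15 B-cell rows, 13 could be tested and 11 were lower. Over all genes tested, 4.0% were higher and 5.2% lower. The summed level of the T-cell list was 3583 to 4818 CPM in high and 43.5 to 958 CPM in low tumors, and that of the B-cell list was 6.09 to 46.2 CPM in high and 504 to 1865 CPM in low tumors. Low tumor 12.2 held both lists, with 958 CPM of T-cell and 504 CPM of B-cell genes. Low tumors 9.2 and 10.2 held 43.5 and 309 CPM of T-cell and 1865 and 1168 CPM of B-cell genes. Self-renewal label and lineage transcripts moved together, so their parts in any difference below cannot be told apart. Myeloid list genes (20 rows) summed to 128 to 1733 CPM in high and 149 to 408 CPM in low tumors, erythroid genes (10 rows) to 2.57 to 64.8 and 11.5 to 39.8 CPM, thymic epithelium genes (8 rows) to 9.42 to 62.9 and 10.2 to 12.9 CPM, and stroma genes (11 rows) to 5.41 to 32 and 10.2 to 61.5 CPM. CEBPB held most of the myeloid sum in many tumors (1658 of 1733 CPM in tumor 8.3), and the other 19 rows summed to 48.4 to 192 CPM in high and 94.5 to 141 CPM in low tumors. The thymic epithelium gene foxn1 was at 0 in every tumor. In bulk RNA, fewer cells of a type and less RNA per cell cannot be told apart.

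Between high and low tumors, an assembly chaperone and an inhibitor were the proteasome genes called. Of 55 subunit and regulator genes that passed the filter on low counts, 2 were lower in the high tumors, PSMD9 and PSMF1, and none was higher (edgeR's quasi-likelihood test, p-values adjusted by Benjamini and Hochberg's method over 16008 genes). That is 3.64% of these genes called. Over all genes tested 9.2% were called, 4.0% higher and 5.2% lower. At an unadjusted p under 0.05 there were 6 of the 55, beside 25.5% of all genes. DESeq2 called 1 higher (PSMG2) and 2 lower, beside 9.3% and 7.47% of all genes. limma-voom called 0 higher and 2 lower, and 9.95% of all genes in either direction, 5.94% lower. The median log2 fold change, high over low, was -0.05 over the 57 rows tested and 0.04 over all genes tested.

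**Figure D1:**
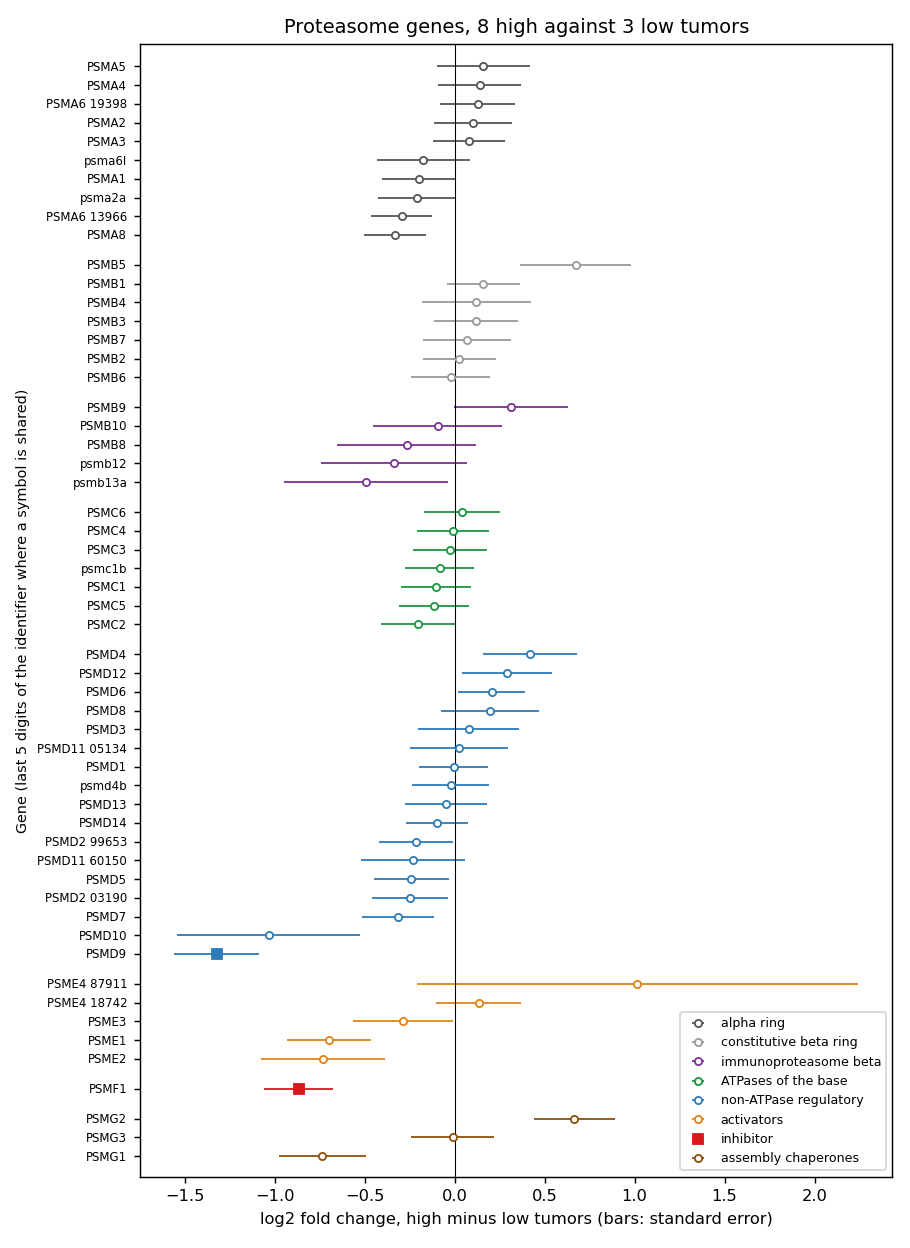
Log2 fold change of each proteasome gene between 8 high and 3 low tumors (x axis, high minus low, bars show the standard error), grouped by role, with filled squares for genes past the adjusted threshold. PSMD9 (-1.32) and PSMF1 (-0.87) are the filled squares, and the alpha ring and ATPase genes lie between -0.33 and 0.16.

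The alpha ring forms the gate of the barrel. Its 10 genes ranged from -0.33 to 0.16 in log2 fold change (SE 0.17 to 0.26), and none passed the test (smallest adjusted p = 0.255, edgeR's quasi-likelihood test). PSMA8, which RefSeq also lists under the name psma7, had the smallest p. Its level was 130 CPM at the lowest, 173 at the median and 195 at the highest of the high tumors, and 180, 208 and 255 CPM in low tumors 9.2, 10.2 and 12.2. The groups overlapped, with a log2 fold change of -0.33 ± 0.17 (SE, 8 against 3 tumors). PSMA6 (ENSDARG00000013966), 1 of 3 rows of the same subunit, had 21.6, 29.6 and 35.2 CPM as lowest, median and highest high tumor, and 33.3, 37.5 and 37.2 CPM in the low tumors. Tumor 9.2 lay inside the range of the high tumors, and the log2 fold change was -0.30 ± 0.17 (adjusted p = 0.307, edgeR). PSMA1 had a mean of 193 ± 32.6 CPM over the high tumors (SD, n = 8) and 222 ± 60.0 CPM over the low ones (SD, n = 3). CPM is not corrected for transcript length, so levels of different genes are not compared.

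The constitutive beta ring holds the catalytic sites. Its 7 genes ranged from -0.02 to 0.67 in log2 fold change (SE 0.20 to 0.31), and none passed the test. PSMB5, the chymotrypsin-like subunit, had 48.9, 86.4 and 102 CPM as lowest, median and highest of the high tumors. In the low tumors it had 77.2 CPM in 9.2, 26.1 in 10.2 and 51.4 in 12.2. Tumor 10.2 was the lowest of the 11 for this gene, while 9.2 and 12.2 lay inside the range of the high tumors. The log2 fold change was 0.67 ± 0.31 (adjusted p = 0.196, edgeR). PSMB6, the caspase-like subunit, had 85.8 ± 19.5 CPM over the high tumors (SD, n = 8) and 87.2 ± 8.43 CPM over the low ones (SD, n = 3). PSMB7, the trypsin-like subunit, had 56.7 ± 9.77 and 54.0 ± 23.1 CPM. Both had log2 fold changes near 0, at -0.02 ± 0.22 and 0.07 ± 0.25. The structural subunit gene PSMB4 stood at 192 CPM in high tumor 15.2, where the other high tumors held 81.3 CPM or more, with a median of 96.5 CPM over the 8. Its log2 fold change was 0.12 ± 0.30 (adjusted p = 0.851, edgeR). PSMB1 had 0.16 ± 0.20.

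The immunoproteasome genes varied between individual tumors, and the groups overlapped for each gene tested. Of the 6 rows, 5 were tested and none passed (smallest adjusted p = 0.546, edgeR's quasi-likelihood test), with 4 negative and 1 positive fold change. psmb11b, the thymus-type subunit, had 1 count in all 20 libraries, in tumor 12.2. PSMB8, the replacement for PSMB5, had 43.9, 119 and 209 CPM as lowest, median and highest of the high tumors, and 122, 124 and 183 CPM in low tumors 9.2, 10.2 and 12.2. The low tumors lay inside the range of the high ones, and the log2 fold change was -0.27 ± 0.39. PSMB9, the replacement for PSMB6, had 63.2, 105 and 181 CPM in the high and 64.9, 76.4 and 116 CPM in the low tumors. It was the only member with a positive fold change, 0.31 ± 0.32, and the groups overlapped. PSMB10, the replacement for PSMB7, had 35.2, 48.2 and 102 CPM in the high tumors and 46.7, 92.5 and 64.1 CPM in the low ones, a log2 fold change of -0.10 ± 0.36.

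Values of the fish genes had the same sign as those of PSMB8. psmb12 had 39.7, 87.3 and 185 CPM as lowest, median and highest high tumor and 94.4, 89.8 and 162 CPM in the low tumors. psmb13a had 15.9, 60.1 and 130 CPM in the high and 72.1, 74.0 and 124 CPM in the low tumors. Their log2 fold changes were -0.34 ± 0.41 and -0.49 ± 0.46, each smaller than the spread within the high group.

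High tumor 15.2 was the highest of the 11 tumors in 4 of these 5 genes, and high tumor 7.2.1 was the lowest in 4 of 5. The 4 genes are PSMB8, PSMB9, psmb12 and psmb13a in both cases. Over all genes tested, 15.2 was highest in 7.85% and 7.2.1 lowest in 7.66%. Of the 17 constitutive 20S genes (alpha ring and constitutive beta ring), 15.2 was also the highest in 6, and 7.2.1 was the lowest in 0. The median log2 CPM over those 17 genes was 6.74 in 15.2, again the highest of the 11 tumors. These tumors were singled out after their values were seen. For PSMB10 the extremes were 4.3.1 (102 CPM) and 8.3 (35.2 CPM). For psmb13a and PSMB8, both libraries of 7.2.1 lay below every other library. psmb13a stood at 4.04 and 4.0 log2 CPM there, beside 5.38 or more in the other 18 libraries. PSMB8 stood at 5.47 in both, and 5.90 or more elsewhere. The 7.2.1 libraries held 6.06 and 5.93 for PSMB9, beside 5.94 in a library of 13.1.1 and 5.98 and 6.0 in those of 9.2. For psmb12 the 7.2.1 libraries held 5.40 and 5.25, beside 5.38 in a library of 13.1.1. In 15.2 the libraries held 7.12 and 6.98 for psmb13a, 7.91 and 7.55 for PSMB8, and 7.69 and 7.41 for psmb12. A library of low tumor 12.2 held 7.16 for psmb13a, above both. That library held 7.68 for PSMB8 and 7.65 for psmb12, each between the libraries of 15.2. For PSMB9 the libraries of 15.2, at 7.60 and 7.45, were the highest.

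Some marker lists of other cells were higher in 15.2 than in 7.2.1. Tumor 15.2 was the highest of the 11 in 7 of 15 tested myeloid genes, among them csf1ra (29.1 CPM) and marco (34.4 CPM). The myeloid list without CEBPB summed to 192 CPM there and 87.2 CPM in 7.2.1. With CEBPB the order turned, at 231 CPM in 15.2 and 251 CPM in 7.2.1. CEBPB itself had 38.9 CPM in 15.2, its lowest of the 11, and 164 CPM in 7.2.1. The stroma list summed to 32 CPM in 15.2, the highest of the high tumors, and to 5.41 CPM in 7.2.1, the lowest of the 11. The thymic epithelium list summed to 47.4 CPM in 15.2 and 9.42 CPM in 7.2.1, and the B-cell list to 22.3 and 6.09 CPM, in both cases the lowest of the 11 in 7.2.1. The erythroid list did not follow, at 7.89 CPM in 15.2 and 8.31 CPM in 7.2.1. Of the tested myeloid genes, 7.2.1 was the highest tumor in 2 and the lowest in 2. Tumor 13.1.1 held 164 CPM for the myeloid list without CEBPB, 28.6 CPM for stroma and 62.9 CPM for thymic epithelium. Its immunoproteasome genes summed to 273 CPM, beside 211 CPM in 7.2.1 and 795 CPM in 15.2. The part of these cells in the immunoproteasome levels was not tested.

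**Figure D2:**
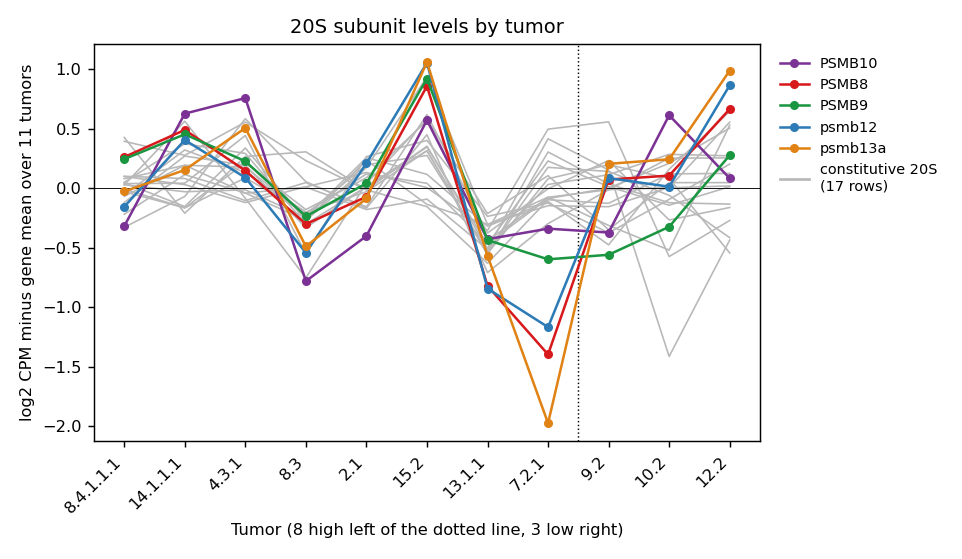
Level of each 20S subunit gene in each tumor, as log2 CPM minus the gene's mean over the 11 tumors (y axis), with 5 immunoproteasome genes in colour and 17 constitutive genes in grey, and the 3 low tumors right of the dotted line. PSMB8, psmb12 and psmb13a drop below the constitutive genes in tumor 7.2.1 and peak in 15.2 and 12.2, while the low constitutive point at 10.2 is PSMB5.

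PSMB8, PSMB9, psmb12 and psmb13a also share a place in the genome, which the choice of genes did not use. In the RefSeq gene table of assembly GRCz12tu, psmb13a, psmb8a, psmb12 and psmb9a are consecutive entries, followed by the peptide transporter gene tap2a. Before them stand the MHC class I gene mhc1uba and the tapasin genes tapbp.1 and tapbp.2, which help load peptide onto class I molecules. psmb10 is elsewhere. The entries of psmb13a and psmb8a overlap there, and without a known strand setting reads in an overlap cannot be told apart.

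The spread over the 11 tumors was wider for the immunoproteasome genes than for most of the rest of the barrel. The standard deviation of log2 CPM over tumors ran from 0.47 to 0.83 in the 5 immunoproteasome genes, with a median of 0.65. In the 17 constitutive 20S genes it ran from 0.23 to 0.58, with a median of 0.29, and PSMB5 was the gene at 0.58. The 7 ATPase genes lay between 0.24 and 0.30. The median over all genes tested was 0.68, and it was 0.50 over the 10470 genes whose mean CPM was at least that of the lowest subunit gene. The immunoproteasome median lay above the latter value and the constitutive 20S median below it. PSMB9, at 0.47, also lay below it. Within that set the 5 genes stood between the 46.7th (PSMB9) and 75.7th (psmb13a) percentile of spread. The set began at 5.66 CPM, the mean of a PSME4 copy, so its genes were not matched in level. As a ratio of the highest to the lowest tumor, psmb13a ranged 8.18-fold and PSMB8 4.77-fold, where the median constitutive 20S gene ranged 1.99-fold. Within the 8 high tumors alone the medians were 0.72 for the immunoproteasome and 0.30 for the constitutive 20S genes. These are descriptions, with no test.

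**Figure D3:**
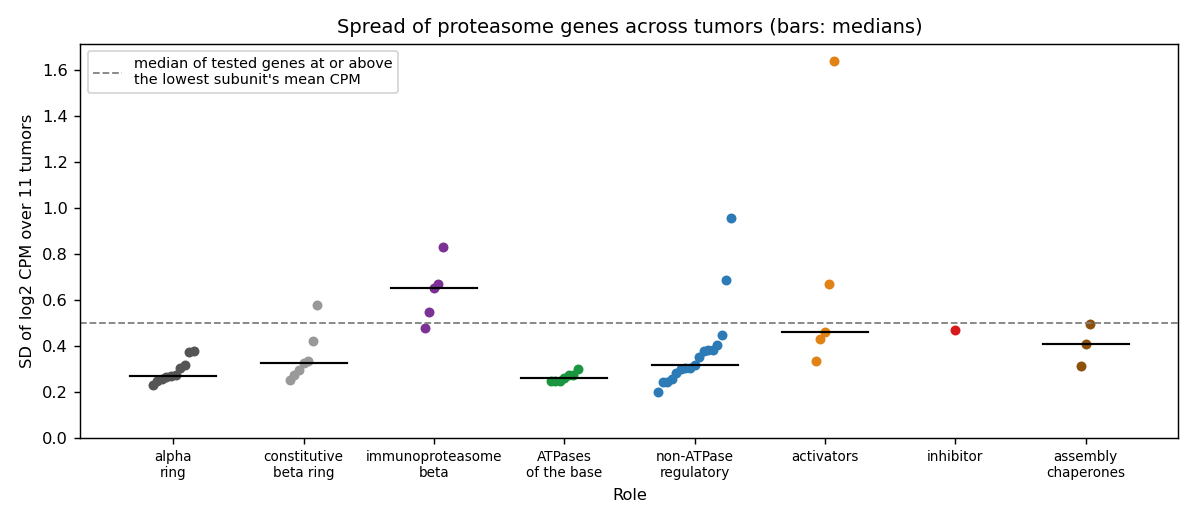
Standard deviation of log2 CPM over the 11 tumors (y axis) for each proteasome gene, by role (x axis), with black bars for role medians and a dashed line at 0.50, the median of the 10470 tested genes at or above the lowest subunit's mean CPM. Immunoproteasome genes centre on 0.65 and ATPase genes on 0.26, and the highest point is a PSME4 copy at 1.64.

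Set against the subunit it replaces in the same tumor, PSMB8 ranged more widely than PSMB9 and PSMB10 did. These ratios of counts need no scaling between libraries, but they are not corrected for length, so they are read only across tumors. PSMB8 over PSMB5 was 0.475 in high tumor 7.2.1 and between 1.15 and 2.36 in the other high tumors. In the low tumors it was 1.57 in 9.2, 4.76 in 10.2 and 3.56 in 12.2. Tumors 10.2 and 12.2 lay above every high tumor and 9.2 did not. The mean log2 ratio was 0.42 ± 0.69 over the high tumors (SD, n = 8) and 1.58 ± 0.83 over the low ones (SD, n = 3), a difference of -1.16 (two-sided exact permutation test, p = 0.0364, 0.109 after Benjamini-Hochberg adjustment over the 3 pairs). The difference did not pass after adjustment, and the smallest p that this design allows is 0.00606. The low PSMB5 of tumors 10.2 and 12.2 (26.1 and 51.4 CPM, beside a median of 86.4 CPM in the high tumors) enters this difference. So does the high PSMB8 of 12.2 (183 CPM). High tumor 15.2 had 209 CPM of PSMB8 with 88.7 CPM of PSMB5, and a ratio of 2.36.

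PSMB9 over PSMB6 ran from 0.776 in 8.3 to 2.38 in 15.2 among the high tumors, with 0.837, 0.831 and 1.26 in the low tumors. The means differed by 0.33 on the log2 scale (exact permutation p = 0.394, adjusted 0.591). PSMB10 over PSMB7 ran from 0.622 in 7.2.1 to 2.04 in 4.3.1, with 0.583, 2.52 and 1.42 in the low tumors. The low tumors held both the lowest and the highest value of the 11, and the difference was -0.28 (exact permutation p = 0.624, adjusted 0.624). Without tumor 10.2 it was 0.21.

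**Figure D4:**
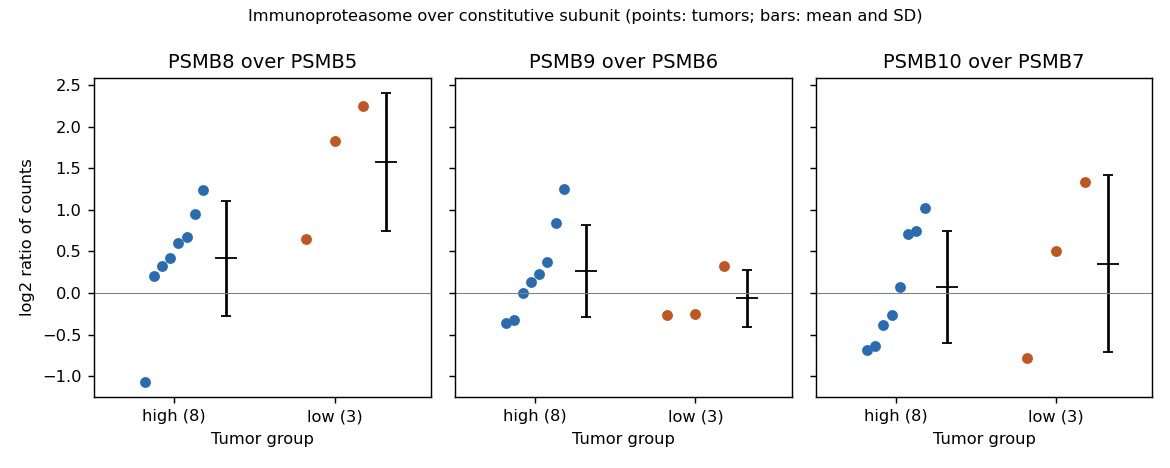
Log2 ratio of counts of each immunoproteasome subunit to the constitutive subunit it replaces (y axis) in 8 high and 3 low tumors (points, with mean and SD beside them). The PSMB8 to PSMB5 ratio averages 0.42 in high and 1.58 in low tumors, with the lowest point in tumor 7.2.1, and the groups overlap in each ratio.

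Taken as a share of all reads on psmb genes, immunoproteasome rows held 25.5% in tumor 7.2.1 and 51.4% in 15.2, the lowest and highest of the high tumors, with a median of 41.2%. The low tumors held 40.2% in 9.2, 48.5% in 10.2 and 54.3% in 12.2. Tumor 12.2 lay above every high tumor, and the ranges overlapped. The libraries of 7.2.1 gave 25.46% and 25.52%, and those of 12.2 gave 55.3% and 52.9%. Levels in the libraries of 12.2 differed more, with medians of 6.24 and 6.68 log2 CPM over the constitutive 20S genes. The median difference between them over subunit genes was 0.41 on the log2 scale. In the other tumors with 2 libraries it was 0.054 to 0.32.

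The ATPases of the base, which unfold substrates, were among the most even genes. Their 7 log2 fold changes lay between -0.20 and 0.04 (SE 0.19 to 0.21) and none passed (smallest adjusted p = 0.599, edgeR). PSMC2 had 42.5, 62.4 and 74.0 CPM as lowest, median and highest high tumor and 71.4, 55.1 and 78.9 CPM in the low tumors, a log2 fold change of -0.20 ± 0.21. PSMC5 had 81.4, 111 and 128 CPM in the high and 109, 92.8 and 158 CPM in the low tumors, a log2 fold change of -0.11 ± 0.19. Low tumors 9.2 and 10.2 lay inside the high range for PSMC5, and 12.2 above it. PSMC4 and psmc1b had -0.01 ± 0.20 and -0.08 ± 0.19.

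High tumor 13.1.1 stood low for most of the barrel and the 19S particle. It was the lowest of the 11 tumors in 28 of 41 constitutive 20S and 19S genes, and in 6.27% of all genes tested. Its median log2 CPM over the 17 constitutive 20S genes was 5.98, beside 6.24 to 6.74 in the other tumors, and it was 6.00, again the lowest, with relative log expression factors. With upper-quartile factors it was 6.08, and tumor 8.3 was lower at 6.05. All 17 genes lay below their own median over tumors in 13.1.1. The immunoproteasome genes were low there too, with a median of 5.64 log2 CPM. That median was 5.46 in 7.2.1 and 5.94 or more in the other tumors. The libraries of 13.1.1 differed, with 5.82 and 6.22 for the constitutive 20S genes. The summed erythroid (64.8 CPM) and thymic epithelium (62.9 CPM) lists were the highest of the 11 tumors there. The B-cell list (46.2 CPM) was the highest of the high tumors through SYK (30.6 CPM), and its other 14 rows summed to 15.7 CPM, beside 19 CPM in 14.1.1.1. The myeloid list without CEBPB summed to 164 CPM. The part of these cells in the low level was not tested.

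Among the other regulatory particle genes, the call fell on an assembly factor. PSMD9 codes in mammals for a chaperone that helps assemble the base and leaves before the particle is complete. Its level was 14.9 CPM at the lowest, 17 at the median and 26.6 at the highest of the high tumors, and 30.0, 58.5 and 48.5 CPM in low tumors 9.2, 10.2 and 12.2. Every high tumor lay below every low tumor, with a log2 fold change of -1.32 ± 0.24 (adjusted p = 0.00554, edgeR's quasi-likelihood test). Without tumor 10.2 it was -1.11 and just missed the threshold (adjusted p = 0.0505). PSMD10, called gankyrin in mammals and another chaperone of the base, had 8.67, 18.6 and 52.3 CPM in the high tumors. Low tumors 10.2 and 12.2 held 52.9 and 77.3 CPM, above every high tumor, and 9.2 held 15.3 CPM. Its log2 fold change of -1.03 ± 0.51 did not pass (adjusted p = 0.228, edgeR). PSMD5, also a base chaperone in mammals, had -0.24 ± 0.21. The scaffold gene PSMD1 had 156 ± 26.6 CPM over the high tumors (SD, n = 8) and 156 ± 22.6 CPM over the low ones (SD, n = 3). The other 13 genes of this role ranged from -0.32 to 0.42 in log2 fold change and none was called.

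PSMF1 codes for a protein named for its ability to inhibit the proteasome in vitro. It had 13.9, 20.2 and 23.6 CPM as lowest, median and highest of the high tumors and 31.9, 39.1 and 35.1 CPM in the low tumors. The groups did not overlap, and the log2 fold change was -0.87 ± 0.19 (adjusted p = 0.0169, edgeR's quasi-likelihood test). The call was lost without tumor 10.2 (-0.79, adjusted p = 0.102) and without tumor 12.2 (-0.83, adjusted p = 0.0571).

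Chaperones that build the alpha ring were not called in either direction by edgeR with TMM factors. PSMG1 and PSMG2 code in mammals for partners in a heterodimer. PSMG1 had 38.4, 55.7 and 81.4 CPM in the high tumors and 69.0, 103 and 116 CPM in the low tumors, a log2 fold change of -0.74 ± 0.24. PSMG2 had 70.6, 86.8 and 136 CPM in the high and 54.7, 54.4 and 64.2 CPM in the low tumors, a log2 fold change of 0.66 ± 0.22. The values thus lay in opposite directions, and neither passed over all genes (adjusted p = 0.082 and 0.0883, edgeR). For PSMG2 every high tumor was above every low tumor, and DESeq2 called it (adjusted p = 0.0257). PSMG1 was called with upper-quartile factors (adjusted p = 0.0467) and without tumor 8.3 (0.0403). PSMG3 had -0.01 ± 0.23. Groups without overlap were seen in 3 of the 55 genes (PSMD9, PSMF1 and PSMG2, 5.45%), and in 11.9% of all genes tested, 6.01% with the high tumors above and 5.84% with them below.

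**Figure D5:**
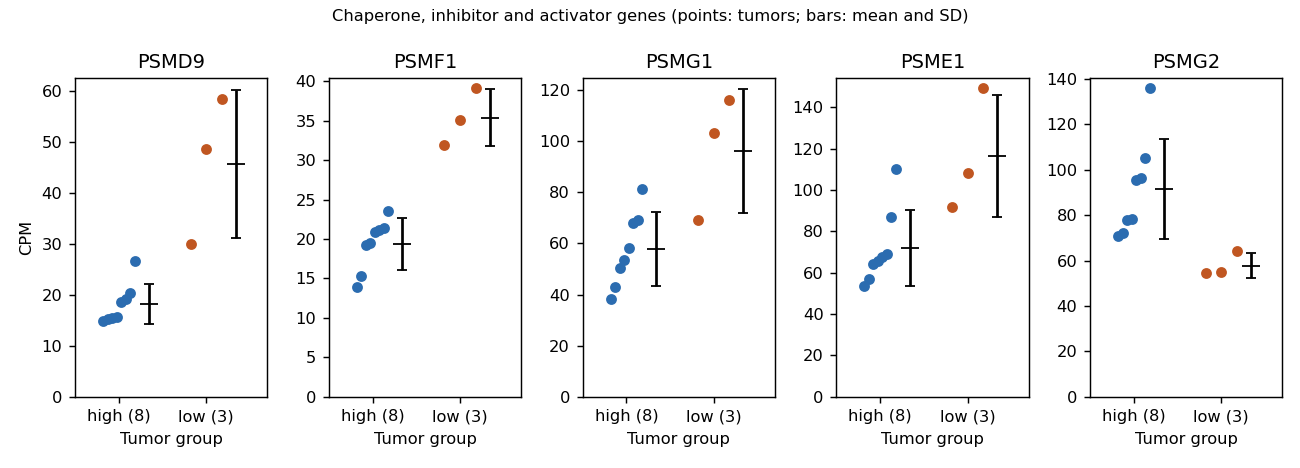
CPM of PSMD9, PSMF1, PSMG1, PSME1 and PSMG2 (y axes, starting at 0) in 8 high and 3 low tumors (points, with mean and SD beside them). PSMD9 and PSMF1 have all 8 high tumors below the 3 low ones, PSMG2 is higher in every high tumor, and PSMG1 and PSME1 overlap.

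Of the activators, PSME1 and PSME2 code for the PA28 cap, which interferon induces in mammals. PSME1 had 53.6, 66.6 and 110 CPM in the high tumors and 91.8, 149 and 108 CPM in the low tumors. PSME2 had 30.9, 68.5 and 105 CPM and 81.6, 98.4 and 148 CPM. The low tumors lay toward the top of the high range or above it, with log2 fold changes of -0.70 ± 0.23 (adjusted p = 0.0852, edgeR) and -0.73 ± 0.35 (adjusted p = 0.209). Without tumor 15.2 PSME1 passed (adjusted p = 0.0367). PSME2 was lowest in 7.2.1, as were the 4 immunoproteasome genes above. PSME3, the nuclear PA28 gamma, had 55.1, 80.9 and 147 CPM in the high and 107, 91.5 and 117 CPM in the low tumors (log2 fold change -0.29 ± 0.28). The PSME4 genes code for PA200. The copy ENSDARG00000018742 had 142 ± 22.5 CPM over the high tumors (SD, n = 8) and 129 ± 51.0 CPM over the low ones (SD, n = 3). The copy ENSDARG00000087911 had a median of 2.10 CPM in the high tumors and 34.9 CPM in tumor 8.3, with 2.64, 5.26 and 1.85 CPM in the low tumors. Of 15 tested myeloid genes, 8.3 was the highest tumor for CEBPB only and the lowest for 5, and their part in this value was not tested. Neither copy passed.

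Several subunits are present as paralogous rows, and the balance between copies varied with the pair. Reads of PSMD2 divided almost evenly in every tumor, with 47.5% to 52.3% on ENSDARG00000099653. RefSeq lists 1 psmd2 gene, so the PSMD2 rows may stand for near-identical copies and their values are uncertain. The share of PSMD11 reads on ENSDARG00000005134 ran from 18.9% in tumor 4.3.1 to 42.0% in 15.2. For PSMC1 beside psmc1b it was steady, at 51.3% to 59.5%. PSMD4 held 42.1% to 58.2% of the reads beside psmd4b in the high tumors and 36.2% to 42.6% in the low ones, and the groups overlapped.

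PSMC3IP, a recombination factor that partners with meiotic proteins, had a median of 2.52 CPM in the high tumors and a log2 fold change of -0.28 ± 0.76. PSME3IP1 had -0.27 ± 0.34, and neither was called.

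Genes that work with the proteasome were followed as a list of accessory factors. Of 20 tested, none passed in either direction, and the median log2 fold change was 0.12. RAD23B, which carries ubiquitin-tagged proteins to the proteasome, had 177, 205 and 233 CPM as lowest, median and highest high tumor and 262, 299 and 317 CPM in the low tumors. The groups did not overlap, and the log2 fold change of -0.50 ± 0.15 just missed the threshold (adjusted p = 0.0534, edgeR). VCP, the ATPase that extracts ubiquitin-tagged proteins from complexes and membranes, had 0.64 ± 0.22 (adjusted p = 0.0964).

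On the list of MHC class I pathway genes, 1 of 25 tested was lower in the high tumors and none was higher, beside 5.2% and 4.0% of all genes, a share near the background. The median log2 fold change was -0.49. The gene called was tap2t, a relative of the peptide transporter, with 38.6, 43.1 and 57.4 CPM in the high and 72.3, 64.1 and 74.6 CPM in the low tumors. Every high tumor lay below every low tumor, and the log2 fold change was -0.66 ± 0.16 (adjusted p = 0.0227, edgeR). Tumor 15.2 was the highest of the 11 in 3 of the 25 genes, beside 7.85% of all genes tested. Tumor 7.2.1 was the lowest of the 11 in 12 of the 25 genes, beside 7.66% of all genes tested. The gene tap2a, next to the immunoproteasome genes, had 16.2 CPM there and 35.5 to 136 CPM in the other tumors. The light chain gene b2m had 332 CPM there and 547 to 1975 CPM elsewhere, and TAP1 had 32 CPM beside 47.3 to 146 CPM. The tapasin genes tapbp.1 and tapbp.2 were lowest in tumor 13.1.1 instead, at 25.3 and 41.6 CPM.

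Of 20 tested genes of interferon signalling and its regulators, 1 was higher in the high tumors and none lower, beside 4.0% and 5.2% of all genes, again near the background. The median log2 fold change was -0.58. ifngr1l, an interferon gamma receptor gene, had 99.6, 108 and 178 CPM in the high and 63.2, 68.4 and 61.1 CPM in the low tumors, without overlap, and a log2 fold change of 0.89 ± 0.21 (adjusted p = 0.0221, edgeR). Tumor 7.2.1 was the lowest of the 11 in 11 of the 20 genes, beside 7.66% of all genes tested. Among them irf1b, a factor that drives immunoproteasome genes in mammals, had 42.1 CPM there and 104 to 419 CPM in the other tumors. nlrc5, which codes in mammals for an activator of class I genes, had 11.4 CPM there and 41.4 to 329 CPM elsewhere. For others of the 11 the margin was small or the level near 0. stat2 had 61.1 CPM in 7.2.1 and 66.8 CPM in 2.1. IRF8, mxa and socs1b had 0.469, 0 and 0.128 CPM in 7.2.1. The interferon gamma gene ifng1 stayed at or below 0.379 CPM in every tumor. The 11 genes were thus lowest in the tumor where PSMB8, PSMB9, psmb12 and psmb13a were lowest. Tumor 15.2, the highest for those 4, was the highest in 2 of the 20 interferon genes. The interferon list summed to 1384 CPM in 15.2, beside 796 CPM in 7.2.1 and 3061 CPM in 10.2, the lowest and highest of the 11 tumors. The immunoproteasome genes summed to 795 CPM in 15.2 and 457 CPM in 10.2. Whether the interferon genes act on the immunoproteasome genes was not tested.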

How the data were processed

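Deposited whole-number counts per gene for 20 libraries were used. Per the submitters' processing notes the authors used STAR, Picard, featureCounts and genome build GRCz10. Tool versions, gene models and strandedness: not given in the sources used here. The members and lists were chosen with earlier results of these data known.

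Libraries with the same tumor title were summed, giving 11573276 to 32466048 counts per tumor. Chi-square tests over genes with at least 10 counts found that the libraries of each of the 9 tumors with 2 libraries differed beyond sampling noise. Genes were filtered with edgeR's default rule on low counts, scaled by TMM factors and tested for 8 high against 3 low tumors with edgeR's quasi-likelihood test, adjusting p-values by Benjamini and Hochberg's method over all 16008 genes and a threshold of 0.05. Standard errors (SE) of log2 fold changes were taken as the absolute log2 fold change divided by the square root of the test's F statistic. Log2 CPM used a prior count of 2. Ratios of subunit counts used a pseudocount of 0.5 and two-sided exact permutation tests. The fit was tested on simulated data. Symbols came from a gene name table (26269 of 32105 identifiers had one), gene order from RefSeq. Of 155 list entries, 19 had no matching row.

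Genes named were every immunoproteasome row, PSMB5 to PSMB7, PSME1 to PSME3, every member called, in each role the 2 with the smallest p and those of highest and lowest mean CPM, and from each list the called members or, with none, the 2 with the smallest p. Other genes are named because a result turned on them, and were chosen after their values were seen. Alternatives were other scalings, no filter, DESeq2, limma-voom, libraries as units, a pseudocount of 5 and leaving out each tumor. Software was R 4.3.3, edgeR 4.0.16, limma 3.58.1, DESeq2 1.42.0, Python 3.11.15, pandas 2.3.3, scipy 1.17.1 and matplotlib 3.10.9.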

Additional observations from a re-analysis of the deposited data

Results flagged for a closer look

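Each of 35 sets held 1 measure, such as a gene level or a ratio, in the 8 high tumors. In 3 of these sets, 1 tumor's gap to the nearest other was large against the whole range. Chance gives this in about 1 in 20 sets. PSMC5 stood at 6.35 log2 CPM in tumor 13.1.1, with 6.71 to 7.0 in the other high tumors. PSMB4 stood at 7.58 log2 CPM in tumor 15.2, with 6.35 to 6.82 in the others. The log2 ratio of PSMB8 to PSMB5 was -1.08 in tumor 7.2.1 and 0.20 to 1.24 in the others.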

How the results depend on the processing

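No paired analysis was possible because the replicate numbers follow accession order only and the labels pair no high tumor with a low one. No proteasome gene was called higher by edgeR or limma-voom under the alternatives run, and DESeq2 called 1 (PSMG2). Calls of lower genes ran from 0 (without 10.2) to 3 (without 8.3 or 15.2) when 1 tumor was left out, and 3 were called with upper-quartile factors. With PSMB8, PSMB9 and PSMB10 alone, the median immunoproteasome share was 31.7% in high and 37.7% in low tumors. Of 510 alternative values of single genes, 48 had the opposite sign. With relative log expression factors, no filter and DESeq2, log2 fold changes became 0.010, 0.0020 and 0.010 for PSMC4, 0.013, 0.0017 and 0.011 for PSMG3, and 0.018, 0.010 and 0.018 for PSMD1. PSME4 ENSDARG00000087911 had -0.35 with DESeq2, -0.16 with limma-voom and -0.33 with libraries as units. Leaving out 1 tumor moved the log2 fold change between -0.15 and 0.15 for PSMC4, -0.28 and 0.18 for PSMC5, -0.091 and 0.49 for PSME4 ENSDARG00000018742, -0.36 and 1.54 for PSME4 ENSDARG00000087911, -0.34 and 0.083 for PSMA1, -0.089 and 0.060 for PSMG3, -0.081 and 0.55 for PSMB4, -0.10 and 0.059 for PSMB6, -0.15 and 0.47 for PSMB7, -0.31 and 0.19 for PSMB10, -0.56 and 0.031 for psmb12, -0.12 and 0.090 for PSMD1, and -0.85 and 0.21 for the PSMB10 to PSMB7 ratio. The cause was not tested. With 3 low tumors, a gene that was not called may still differ, also by a large fold.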
